A study of Mus musculus with 6 samples.

Results

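Expression of 7 genes for the detection of DNA in the cytosol was followed in cultured mouse keratinocytes with and without the DNA methyltransferase DNMT1. They were chosen by name from the 43629 genes of the count table and are Aim2, Ifi203, Ifi204, Ifi207 and Mndal of the p200 cluster on chromosome 1, Cgas on chromosome 9 and Tmem173, the gene of STING, on chromosome 18. The other 8 p200 genes, the partners of these pathways and the interferon-stimulated genes are given beside them. These genes and lists were chosen with earlier results of these data known, so that their shares of called genes are descriptions only. Poly(A) RNA came from epidermal keratinocytes of female mice that were isolated at postnatal day 3 and, by the labels, kept in culture for 5 days. The Dnmt1Δ/Δep mice carried K5-Cre and Dnmt1 f/f, so that Dnmt1 was deleted in cells with activity of the Keratin 5 promoter, and the control mice were Dnmt1 f/f or Dnmt1 f/+ without Cre. There were 3 libraries per group, each from a separate mouse. By the paper's methods, the mouse lines had a mixed genetic background. Whether the mice differed in inherited sequence at the p200 cluster was not tested. The values of p200 genes below, in single libraries and between the groups, are given with this limit.

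The sensor cGAS binds double-stranded DNA in the cytosol and makes the cyclic dinucleotide cGAMP, which activates STING and through the kinase TBK1 the factor IRF3, followed by expression of type I interferon. AIM2 also binds cytosolic DNA but assembles with the adaptor ASC and caspase-1 into an inflammasome, which matures IL-1 family cytokines. The p200 proteins are a rodent-expanded family related to AIM2, many members of which are themselves induced by interferon.

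The targeted gene was examined first. Expression of Dnmt1, in CPM (counts per 1000000 reads of the TMM-scaled library size, TMM being a normalisation over genes), was 394, 379 and 324 in control replicates 1, 2 and 3 and 49.7, 54.3 and 50.7 in Dnmt1Δ/Δep replicates 1, 2 and 3. All 3 Dnmt1Δ/Δep libraries were thus below all controls (log2 fold change -2.83 ± 0.11 SE, adjusted p = 8.1e-05 from edgeR). Summed expression of 10 keratinocyte markers lay between 41106 and 46318 CPM in control and between 32707 and 34667 CPM in Dnmt1Δ/Δep libraries. Of these 10 genes 0 were called with edgeR, 4 were lower and 0 higher at an unadjusted p below 0.05 (7.79% and 15.8% of all genes tested), and DESeq2 called 2 downregulated (0.599% of all genes). Krt5 and Krt14, the keratins of basal cells, passed the adjusted p only (0.038 and 0.028 from edgeR, log2 fold change -0.50 and -0.61), and Krt1, a keratin of differentiating cells, had the lowest log2 fold change (-2.30, adjusted p = 0.085 from edgeR). The libraries held between 53433121 and 115526598 gene reads, so that a limit of 3 counts corresponds to between 0.0254 and 0.0558 CPM, which covers counting error only.

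Among the 7 genes, expression of Aim2 and Ifi204 was upregulated in Dnmt1Δ/Δep keratinocytes. The call required an adjusted p no higher than 0.05 together with a log2 fold change no lower than 1. Values after ± are standard deviations over the 3 libraries of a group unless a standard error (SE) is named. Of the 6 genes with enough reads for the test, 2 were upregulated, 0 were downregulated with edgeR or DESeq2 and 4 did not pass. Of all 16829 genes tested, 1014 (6.03%) were upregulated and 66 (0.392%) downregulated, and DESeq2 called 1393 (6.84%) of 20355 genes up and 122 (0.599%) down. At an unadjusted p below 0.05, 3 of the 6 genes were higher and 0 were lower, compared with 2656 (15.8%) and 1311 (7.79%) of all genes tested. The median log2 fold change was 0.92 over the 6 genes and -0.00089 over all genes tested. In bulk RNA, fewer cells of a type and less RNA per cell cannot be told apart.

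Aim2 (ENSMUSG00000037860, GRCm38 chr1:173350879-173466040, plus strand, protein coding) encodes the DNA-binding receptor of the AIM2 inflammasome. Its expression was 0.529, 0.934 and 1.40 CPM in control replicates 1, 2 and 3, and 16.1, 13.1 and 16.3 CPM in Dnmt1Δ/Δep replicates 1, 2 and 3. The lowest Dnmt1Δ/Δep library was far above the highest control, and control replicate 1 was the lowest of all. The fold change was 16.1 (95% interval 9.17 to 28.4), with a log2 fold change of 4.01 ± 0.35 (SE) and an adjusted p of 0.00097 from edgeR. Aim2 kept its call in all 11 alternative settings, with log2 fold changes between 3.72 and 4.36. Of the 50-base stretches in its transcripts, 0.742% also occur in transcripts of other genes.

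Ifi204 (ENSMUSG00000073489, chr1:173747293-173766943, minus strand, protein coding) encodes a p200 protein described as a DNA sensor upstream of STING. Control replicates 1, 2 and 3 had 0.486, 1.25 and 2.31 CPM and Dnmt1Δ/Δep replicates 1, 2 and 3 had 9.97, 8.57 and 10.3 CPM. The groups did not overlap, as for 3059 (18.2%) of all genes tested in this direction, and control replicate 3 was the highest control. The fold change was 7.25 (95% interval 3.24 to 16.2), with a log2 fold change of 2.86 ± 0.50 (SE) and an adjusted p of 0.014 from edgeR. The call was lost without Dnmt1Δ/Δep replicate 1 (adjusted p = 0.053 from edgeR, log2 fold change 2.83) and without control replicate 2 (2.81, adjusted p = 0.069). Without control replicate 3 the log2 fold change was 3.46 and without control replicate 1 it was 2.45, both called. Transcripts of Ifi204 share 20.0% of their 50-base stretches with other genes, most often with Ifi211, so that its uniquely mapped reads come from the remaining sequence.

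Mndal and Ifi203, p200 genes at the distal side of the cluster, did not pass the test. Mndal (ENSMUSG00000090272, chr1:173849126-173942491, minus strand) had 0.708, 0.954 and 1.73 CPM in control replicates 1, 2 and 3, and 2.82, 1.43 and 2.70 CPM in Dnmt1Δ/Δep replicates 1, 2 and 3. Dnmt1Δ/Δep replicate 2 was below control replicate 3, and the other libraries were ordered by group (log2 fold change 1.05 ± 0.41 SE, 95% interval 0.09 to 2.01, adjusted p = 0.18 from edgeR). Ifi203 (ENSMUSG00000039997, chr1:173920407-173942672, minus strand) had 0.307, 0.215 and 0.596 CPM in control replicates 1, 2 and 3 against 0.621, 0.544 and 0.729 CPM in Dnmt1Δ/Δep replicates 1, 2 and 3. Here again Dnmt1Δ/Δep replicate 2 was below control replicate 3 (log2 fold change 0.79 ± 0.43 SE, 95% interval -0.20 to 1.79, adjusted p = 0.32 from edgeR). The annotated span of Mndal runs over that of Ifi203, and 4.27% of the exon sequence of Mndal lies on other genes. Both genes share sequence with others of the family, 19.6% of 50-base stretches for Mndal and 12.4% for Ifi203.

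Ifi207 (ENSMUSG00000073490, chr1:173723427-173741747, minus strand) was the only one of the 7 genes with too few reads for the test. It had 13, 8 and 3 reads in control and 28, 3 and 5 reads in Dnmt1Δ/Δep replicates 1, 2 and 3. Dnmt1Δ/Δep replicate 1, at 0.470 CPM, stood above the other 5 libraries, which lay between 0.0347 and 0.137 CPM. A difference was not detectable at this depth.

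Cgas and Tmem173 were expressed at similar levels in both groups. Cgas (ENSMUSG00000032344, chr9:78430526-78443237, minus strand), the gene of the enzyme that makes cGAMP, had 3.47, 3.71 and 3.16 CPM in control replicates 1, 2 and 3 against 2.89, 3.67 and 3.76 CPM in Dnmt1Δ/Δep replicates 1, 2 and 3. Dnmt1Δ/Δep replicate 1 was the lowest and replicate 3 the highest library, so that the groups overlapped completely. The log2 fold change was -0.0038 ± 0.19 (SE, adjusted p = 0.99 from edgeR) with a 95% interval of -0.45 to 0.44, and its sign was not the same in all alternative settings (-0.10 to 0.11). For Tmem173 (ENSMUSG00000024349), control replicates 1, 2 and 3 had 9.73, 9.67 and 8.53 CPM and Dnmt1Δ/Δep replicates 1, 2 and 3 had 7.50, 9.99 and 8.24 CPM. The highest and the lowest library were both Dnmt1Δ/Δep (log2 fold change -0.12 ± 0.16 SE, 95% interval -0.49 to 0.25, adjusted p = 0.74 from edgeR).

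**Figure D1:**
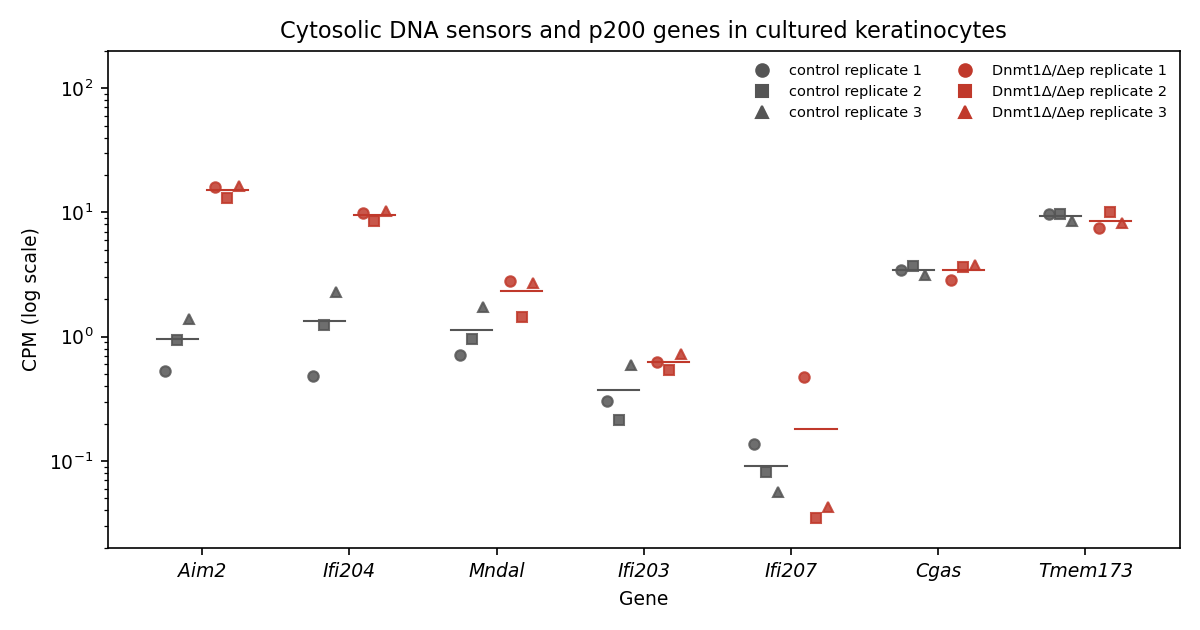
Expression of the 7 genes in CPM on a log axis, with a symbol for each library and a line at each group mean. For Aim2 and Ifi204 all 3 Dnmt1Δ/Δep libraries sit above all controls, for Cgas and Tmem173 the groups lie on each other, and for Mndal, Ifi203 and Ifi207 they overlap.

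The remaining p200 genes were followed along the cluster, which spans 681 kb from Aim2 to Ifi205. Of these 8 genes, 4 could be tested and 2 were upregulated, Ifi213 and Ifi211, beside 6.03% of all genes tested. Ifi213 and Ifi211 both reached the read filter (0.109 CPM in 3 libraries) only with the Dnmt1Δ/Δep libraries, where they are high, as did 445 of all 1014 upregulated genes, so that their count is no measure of the cluster. Ifi213 (ENSMUSG00000073491) had 0 reads in every control library and 119, 111 and 195 reads in Dnmt1Δ/Δep replicates 1, 2 and 3, or 2.00, 1.28 and 1.65 CPM. Against a limit of 3 counts per control library the mean of the Dnmt1Δ/Δep libraries was at least 41.7-fold higher (adjusted p = 0.0014 from edgeR). Ifi211 (ENSMUSG00000026536) had 0.116, 0.195 and 0.0745 CPM in control replicates 1, 2 and 3 against 1.21, 1.01 and 1.48 CPM in Dnmt1Δ/Δep replicates 1, 2 and 3, without overlap (log2 fold change 3.20 ± 0.40 SE, adjusted p = 0.0041 from edgeR). Ifi211 shares 72.8% of its 50-base stretches with other genes, most often with Ifi205, so that its counts rest on a small unique part.

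Ifi202b, which had by far the highest level of the family, did not pass the test. Control replicates 1, 2 and 3 had 128, 113 and 229 CPM and Dnmt1Δ/Δep replicates 1, 2 and 3 had 137, 93.8 and 130 CPM. Its lowest library was Dnmt1Δ/Δep replicate 2 and its highest control replicate 3 (log2 fold change -0.38 ± 0.28 SE, adjusted p = 0.49 from edgeR), and it shares no 50-base stretch with another gene. Ifi209 had 1.29, 1.30 and 2.81 CPM in control replicates 1, 2 and 3 against 5.52, 2.58 and 5.77 CPM in Dnmt1Δ/Δep replicates 1, 2 and 3, with Dnmt1Δ/Δep replicate 2 below control replicate 3. It did not pass (log2 fold change 1.37 ± 0.43 SE, adjusted p = 0.095 from edgeR) unless the replicate number was kept as a block (adjusted p = 0.033 from edgeR, log2 fold change 1.37), control replicate 3 was left out (adjusted p = 0.043 from edgeR, log2 fold change 1.83), low counts were not filtered (adjusted p = 0.032 from edgeR, log2 fold change 1.32) or DESeq2 was used (adjusted p = 0.0081, log2 fold change 1.34).

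The 4 p200 genes that were not tested were Ifi205, Ifi206, Ifi208 and Ifi214. Ifi205 had 1, 0 and 1 reads in control and 13, 4 and 8 reads in Dnmt1Δ/Δep replicates 1, 2 and 3. Ifi206 and Ifi208 had at most 3 reads in any library and Ifi214 had 0 reads in all 6.

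The 42 annotated genes that are not p200 genes but lie inside the cluster or within 500 kb of it were mostly silent. They include 25 olfactory receptor genes and pseudogenes, 27 of the 42 had 0 reads in all libraries, and 4 were tested. None of the 4 was called with edgeR, and none but Gm18445 (log2 fold change -2.05, adjusted p = 0.11) was at an unadjusted p below 0.05. With DESeq2, Gm18445 was the single neighbour called (log2 fold change -2.08, adjusted p = 0.030). Its log2 fold change lay between -2.92 and -1.52 in the alternative settings, with 7, 18 and 3 reads in Dnmt1Δ/Δep replicates 1, 2 and 3. Ifi203-ps and Gm7897, inside the cluster, had log2 fold changes of -0.24 and -0.90, with adjusted p of 0.86 and 0.26 from edgeR. The log2 fold change of Gm7897 lay between -1.20 and -0.29 in the alternative settings. The flanking Duffy receptor gene Ackr1 and mast cell receptor gene Fcer1a had at most 2 reads over all libraries.

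**Figure D2:**
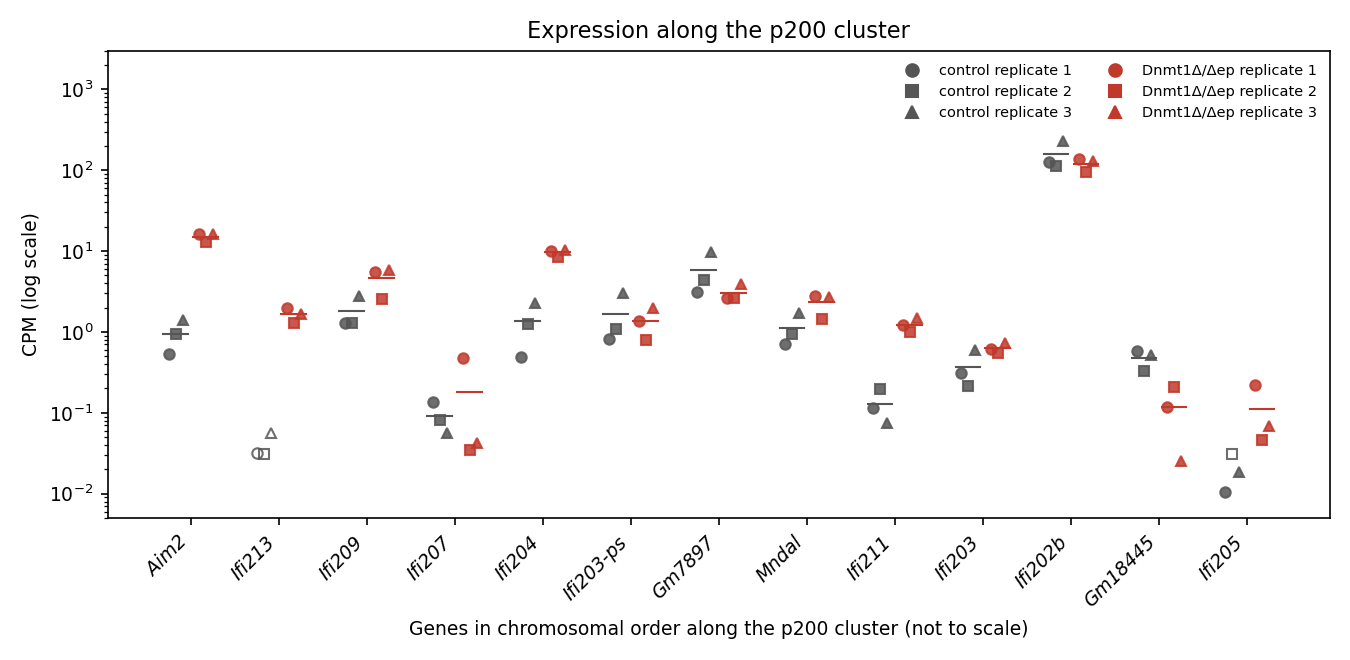
Expression in CPM on a log axis of genes with more than 6 reads inside the p200 cluster, in chromosomal order and not to scale, with a line at group means. Open symbols mark libraries with 0 reads, drawn at 3 counts. Aim2, Ifi213, Ifi204, Ifi211 and Ifi205 are higher in all Dnmt1Δ/Δep libraries, Gm18445 is lower in all of them, and the groups overlap for the others, among them Ifi202b, the highest in both.

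The levels were also ordered per kilobase of exon (RPKM) so that the genes can be set beside each other. Only uniquely mapped reads were counted, while RPKM divides by all exon sequence, so that genes with much shared sequence may appear too low. The shared part of 50-base stretches was 72.8% for Ifi211, 33.7% for Ifi209, 20.0% for Ifi204 and 19.6% for Mndal. It was 4.68% for Cgas, 0.742% for Aim2 and 0% for Ifi202b. In control libraries Ifi202b was highest, at 92.2 ± 37.4 RPKM, followed by Tmem173 at 3.40 ± 0.247, Cgas at 0.836 ± 0.0668 and Ifi209 at 0.508 ± 0.246. Ifi204, Mndal and Aim2 came next, at 0.379 ± 0.257, 0.312 ± 0.147 and 0.272 ± 0.124 RPKM, and these 3 and Ifi209 overlapped each other. In Dnmt1Δ/Δep libraries Ifi202b was again highest, at 70.9 ± 13.7 RPKM, and Aim2 came directly after it at 4.32 ± 0.517. Tmem173 at 3.13 ± 0.467 and Ifi204 at 2.70 ± 0.261 RPKM followed and overlapped each other, while the lowest Aim2 value, 3.73, was just above the highest Tmem173 value, 3.65. Ifi209 at 1.30 ± 0.500 and Cgas at 0.833 ± 0.117 RPKM overlapped, as did Ifi211 at 0.690 ± 0.134 and Mndal at 0.638 ± 0.211.

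Libraries with the same replicate number were sequenced in the same lane, so the differences were also taken within lanes. For Aim2 the log2 ratio of CPM was 4.93, 3.81 and 3.54 for replicate numbers 1, 2 and 3, and for Ifi204 it was 4.36, 2.78 and 2.16. In both genes the ratio was largest for number 1, where the control library was lowest. Mndal had 1.99, 0.59 and 0.64, Ifi203 had 1.02, 1.33 and 0.29 and Ifi209 had 2.10, 0.98 and 1.04, all of them above 0. Ifi202b (0.10, -0.26 and -0.82), Cgas (-0.27, -0.02 and 0.25) and Tmem173 (-0.38, 0.05 and -0.05) had ratios on either side of 0.

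**Figure D3:**
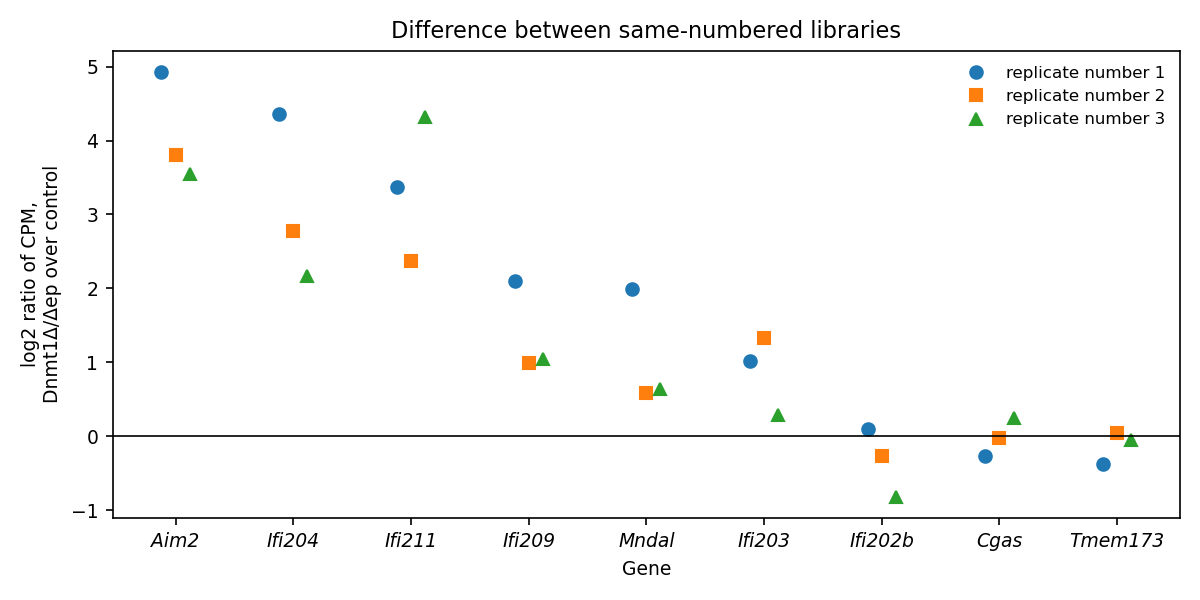
The log2 ratio of CPM between the Dnmt1Δ/Δep and the control library of the same replicate number, for each number and gene. All 3 ratios of Aim2, Ifi204 and Ifi211 are above 2, those of Ifi209, Mndal and Ifi203 are above 0, and those of Ifi202b, Cgas and Tmem173 lie around 0.

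Promoter windows of these genes, from 250 bases before to 50 bases after each annotated start, were taken from RefSeq (GRCm38.p6) to show the sequence at these starts. The window of Aim2 and both windows of Mndal lie inside the gene spans printed above, far from the outer 5′ end, and the outer end of Mndal falls in a window of Ifi203. Which start the cells used was not measured. Windows were found for Cgas and for 12 of the 13 p200 genes, all but Ifi204, and not for Tmem173. There were 14 windows in all for p200 genes since Mndal and Ifi203 have an additional start. DNA methylation and factor binding were not measured in these files, and a match is a description of the letters only. The core of the interferon-stimulated response element, GAAANNGAAA on either strand, was present in 10 of the 14 p200 windows, from 9 genes, compared with 1131 of all 32851 windows (3.44%). It was present for Ifi213 and Ifi211, which were upregulated, and also for Mndal and Ifi203, which did not pass, and it was not in the windows of Aim2, Ifi209, Ifi202b and Cgas. The windows of these 4 p200 genes show the element in the last 120 bases before the start, 5′ to 3′ on the minus strand, with the core in capitals.
Ifi213, chr1:173599273-173599392: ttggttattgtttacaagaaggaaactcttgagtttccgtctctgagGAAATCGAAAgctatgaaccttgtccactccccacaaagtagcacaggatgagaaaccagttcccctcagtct
Ifi211, chr1:173913047-173913166: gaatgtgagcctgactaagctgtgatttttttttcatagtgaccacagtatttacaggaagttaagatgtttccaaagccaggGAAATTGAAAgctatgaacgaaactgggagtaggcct
Mndal, chr1:173880188-173880307: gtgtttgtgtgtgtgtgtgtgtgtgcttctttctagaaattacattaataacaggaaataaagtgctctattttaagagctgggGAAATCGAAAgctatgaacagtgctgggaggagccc
Ifi203, chr1:173942493-173942612: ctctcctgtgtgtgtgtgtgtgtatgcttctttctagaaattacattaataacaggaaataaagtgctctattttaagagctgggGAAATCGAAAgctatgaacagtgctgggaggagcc
In all 4 the core was followed by the same 9 bases, gctatgaac. A search for GAAATNGAAAGCTATGAAC on both strands, a string picked after these windows had been read, found it in 7 of all 32851 windows (0.0213%), and all 7 belonged to p200 genes, namely Ifi203, Ifi205, Ifi206, Ifi208, Ifi211, Ifi213 and Mndal. Within the printed stretches, Mndal and Ifi203 had an unbroken run of 96 bases in common, which reaches the end of the Ifi203 stretch, against 20 for Ifi213 and Ifi203 and 13 for Ifi211 and Ifi213. The core starts 73 bases before the start in Ifi213 and 35 to 37 bases before it in the other 3. The p200 genes are copies of each other, so that their windows are not independent observations.

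The 250 bases before the starts of Aim2 and Cgas are shown for their CpG sites, the dinucleotide that DNMT1 keeps methylated, which are in capitals.
Aim2, chr1:173420354-173420603, plus strand: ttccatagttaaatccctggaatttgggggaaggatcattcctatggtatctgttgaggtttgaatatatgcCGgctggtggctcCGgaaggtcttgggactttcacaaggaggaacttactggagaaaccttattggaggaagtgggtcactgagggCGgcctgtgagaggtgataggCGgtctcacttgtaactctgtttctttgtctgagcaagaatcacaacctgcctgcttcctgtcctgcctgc
Cgas, chr9:78443238-78443487, minus strand: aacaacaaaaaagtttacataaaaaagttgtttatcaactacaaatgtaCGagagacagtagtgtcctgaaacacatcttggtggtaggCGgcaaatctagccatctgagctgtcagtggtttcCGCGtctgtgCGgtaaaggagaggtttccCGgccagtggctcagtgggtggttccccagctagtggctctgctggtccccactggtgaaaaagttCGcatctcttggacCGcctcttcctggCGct
The 300-base window of Aim2 held 5 CpG sites and that of Cgas 16, with a median of 7 over all windows. All 14 p200 windows held between 1 and 5 CpG sites, and 43.6% of all windows held at most 5. In Ifi213, Mndal and Ifi203 the element shown above itself contains a CpG, and in Ifi211 it does not. Neither Aim2 nor Cgas held the interferon gamma activation core TTCNNNGAA, on either strand, which was found in 8.30% of all windows and in 1 p200 window, that of Ifi202b. The NF-κB core GGGNNNNNCC, on either strand, was found in 6 of the 14 p200 windows and in 50.8% of all windows.

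Downstream of cGAS and STING, 42 of 44 listed transducers and regulators could be tested, and 5 (11.9%) were upregulated and 0 downregulated with edgeR, beside 6.03% and 0.392% of all genes tested, with a median log2 fold change of -0.00013. At an unadjusted p below 0.05, 13 of the 42 were higher and 3 were lower, beside 15.8% and 7.79% of all genes tested. DESeq2 called 6 up and 0 down, beside 6.84% and 0.599% of all genes. The core signalling genes had similar levels in both groups. Tbk1, the kinase that phosphorylates IRF3, had 46.4 ± 1.48 CPM in the controls and 45.8 ± 2.17 CPM without Dnmt1 (adjusted p = 0.94 from edgeR). Irf3 had 36.8 ± 1.66 and 35.8 ± 1.12 CPM (adjusted p = 0.87 from edgeR), and Irf7, the interferon-inducible relative of IRF3, had 1.72 ± 0.537 and 2.25 ± 0.866 CPM (adjusted p = 0.58). The kinase gene Ikbke, a relative of Tbk1, had 25.2 ± 2.66 and 46.6 ± 8.76 CPM, which passed the adjusted p (0.015 from edgeR) but not the fold threshold (log2 fold change 0.89). Stim1, a calcium sensor that retains STING in the endoplasmic reticulum, had 185 ± 19.1 and 127 ± 12.7 CPM, again past the adjusted p only (0.031 from edgeR, log2 fold change -0.55). Both were picked after their values had been seen.

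The 5 upregulated genes of this list were Enpp1, Nlrc5, Irgm1, Usp18 and Trim30a. Enpp1, which hydrolyses cGAMP outside the cell, rose from 2.64 ± 0.138 to 29.5 ± 3.20 CPM (adjusted p = 8.1e-05 from edgeR, log2 fold change 3.48). Nlrc5, known as an activator of MHC class I genes and as a modulator of innate signalling, rose from 1.41 ± 0.798 to 34.7 ± 8.33 CPM (adjusted p = 0.0014 from edgeR, log2 fold change 4.65). Irgm1, an interferon-inducible GTPase, rose from 1.97 ± 0.484 to 8.47 ± 2.74 CPM (adjusted p = 0.0059 from edgeR). Usp18, a deubiquitinase for ISG15, rose from 0.457 ± 0.327 to 3.60 ± 1.89 CPM, and Trim30a, a TRIM protein reported to act on STING, from 0.0324 ± 0.0227 to 0.457 ± 0.371 CPM (adjusted p = 0.032 and 0.031 from edgeR). Without Dnmt1Δ/Δep replicate 1 and without Dnmt1Δ/Δep replicate 3, 3 genes of the list were called in each case. The call of Usp18 was lost without any single Dnmt1Δ/Δep library or control replicate 2 (adjusted p between 0.052 and 0.12), and that of Trim30a without any single control library or Dnmt1Δ/Δep replicate 1 or 3 (adjusted p between 0.054 and 0.12). Trim30a reached the read filter only with the Dnmt1Δ/Δep libraries, and its log2 fold change of 3.91 was 2.98 without Dnmt1Δ/Δep replicate 3.

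Among other sensors of DNA, 0 of 15 tested genes were called with edgeR, with log2 fold changes between -0.33 and 0.34, and 1 was higher and 2 were lower at an unadjusted p below 0.05, beside 15.8% and 7.79% of all genes tested. DESeq2 called 0 of them upregulated and 0 downregulated. Zbp1, a receptor for Z-form nucleic acids, and Tlr9, the endosomal receptor for CpG DNA, had too few reads for the test, at most 0.364 and 0.0809 CPM in any library. In the 6 alternative settings that tested Zbp1, its log2 fold change lay between 2.19 and 2.73 and its adjusted p between 0.054 and 0.16, so that it was not called. Among 15 tested nucleases that clear DNA, only Dnase1l3, a secreted nuclease, was called (6.67%, beside 6.03% of all genes), and 2 were higher and 2 lower at an unadjusted p below 0.05 (15.8% and 7.79% of all genes). It rose from 20.4 ± 9.88 to 52.7 ± 4.05 CPM (adjusted p = 0.043 from edgeR, log2 fold change 1.37), and this call was lost without Dnmt1Δ/Δep replicate 1, 2 or 3 or control replicate 2 (adjusted p between 0.093 and 0.15) and among genes with a mean of at least 1 CPM (0.057). Trex2, an exonuclease of keratinocytes picked after its values had been seen, had 16.1 ± 4.34 and 32.9 ± 12.8 CPM (adjusted p = 0.11 from edgeR) and was called without Dnmt1Δ/Δep replicate 3 (log2 fold change 1.32, adjusted p = 0.031), with low counts kept in (adjusted p = 0.034) and with DESeq2 (adjusted p = 0.022). Samhd1, which lowers the pool of deoxynucleotides, had 38.6 ± 4.63 and 46.1 ± 3.73 CPM (adjusted p = 0.26 from edgeR). Trex1, the main cytosolic exonuclease, is listed with 0 reads in every library, and 100% of its exon sequence overlaps that of Atrip, where reads cannot be assigned to a single gene by the union model of htseq-count.

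On the side of the AIM2 inflammasome, 6 of 22 tested genes (27.3%) were upregulated and 0 downregulated with edgeR, with a median log2 fold change of 0.95, beside 6.03% and 0.392% of all genes tested. With the replicate number as a block, 9 of the 22 were upregulated, beside 1173 of all 16829 genes tested. At an unadjusted p below 0.05, 11 were higher and 0 were lower, where all genes have 15.8% and 7.79%. DESeq2 called 8 up and 0 down, where all genes have 6.84% and 0.599%. Pycard, the gene of the adaptor ASC that joins AIM2 to caspase-1, was not among them. Control replicates 1, 2 and 3 had 31.6, 62.7 and 89.5 CPM of Pycard and Dnmt1Δ/Δep replicates 1, 2 and 3 had 31.2, 49.0 and 33.2 CPM, with control replicate 1 as low as the Dnmt1Δ/Δep libraries (adjusted p = 0.31 from edgeR, log2 fold change -0.70). Without control replicate 1, Pycard was called downregulated (adjusted p = 0.035 from edgeR, log2 fold change -1.01). Casp1, the protease of the inflammasome, rose from 0.221 ± 0.0488 to 1.07 ± 0.560 CPM (adjusted p = 0.024 from edgeR, log2 fold change 2.26). The call of Casp1 was lost without control replicate 2 or 3 or Dnmt1Δ/Δep replicate 1 or 3 (adjusted p between 0.067 and 0.077). Gsdmd, the pore-forming substrate of caspase-1, had 1.61 ± 0.264 and 2.99 ± 0.135 CPM and passed the adjusted p (0.040 from edgeR) but not the fold threshold (log2 fold change 0.89). The cytokine substrates did not pass, with 0.0768 ± 0.0701 and 0.220 ± 0.0880 CPM for Il1b (adjusted p = 0.39 from edgeR) and 6.73 ± 5.25 and 13.5 ± 2.84 CPM for Il18 (adjusted p = 0.38 from edgeR). The log2 fold change of Il1b, 1.50, was 2.48 without control replicate 1 and 0.87 without control replicate 2. That of Il18, 1.01, was 1.73 without control replicate 3 and 0.54 without control replicate 1.

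The other 5 called genes of this list were Il1a, Nlrp10, Gbp2, Irf1 and Card6. Il1a, an alarmin cytokine of keratinocytes that is active without cleavage by caspase-1, rose from 5.52 ± 3.64 to 84.1 ± 31.5 CPM (adjusted p = 0.0057 from edgeR, log2 fold change 3.93, or 4.61 without control replicate 1). Nlrp10, an NLR protein expressed in epidermis, rose from 5.21 ± 1.47 to 34.8 ± 6.32 CPM (adjusted p = 0.0010 from edgeR, log2 fold change 2.75). Irf1 and Gbp2, a transcription factor and a guanylate-binding protein that promote AIM2 responses to bacterial DNA, rose from 4.56 ± 0.894 to 17.7 ± 1.02 CPM and from 0.768 ± 0.236 to 3.38 ± 0.758 CPM (adjusted p = 0.0010 and 0.0074 from edgeR). Card6 rose from 1.64 ± 0.0682 to 4.37 ± 0.171 CPM (adjusted p = 0.0036 from edgeR).

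**Figure D4:**
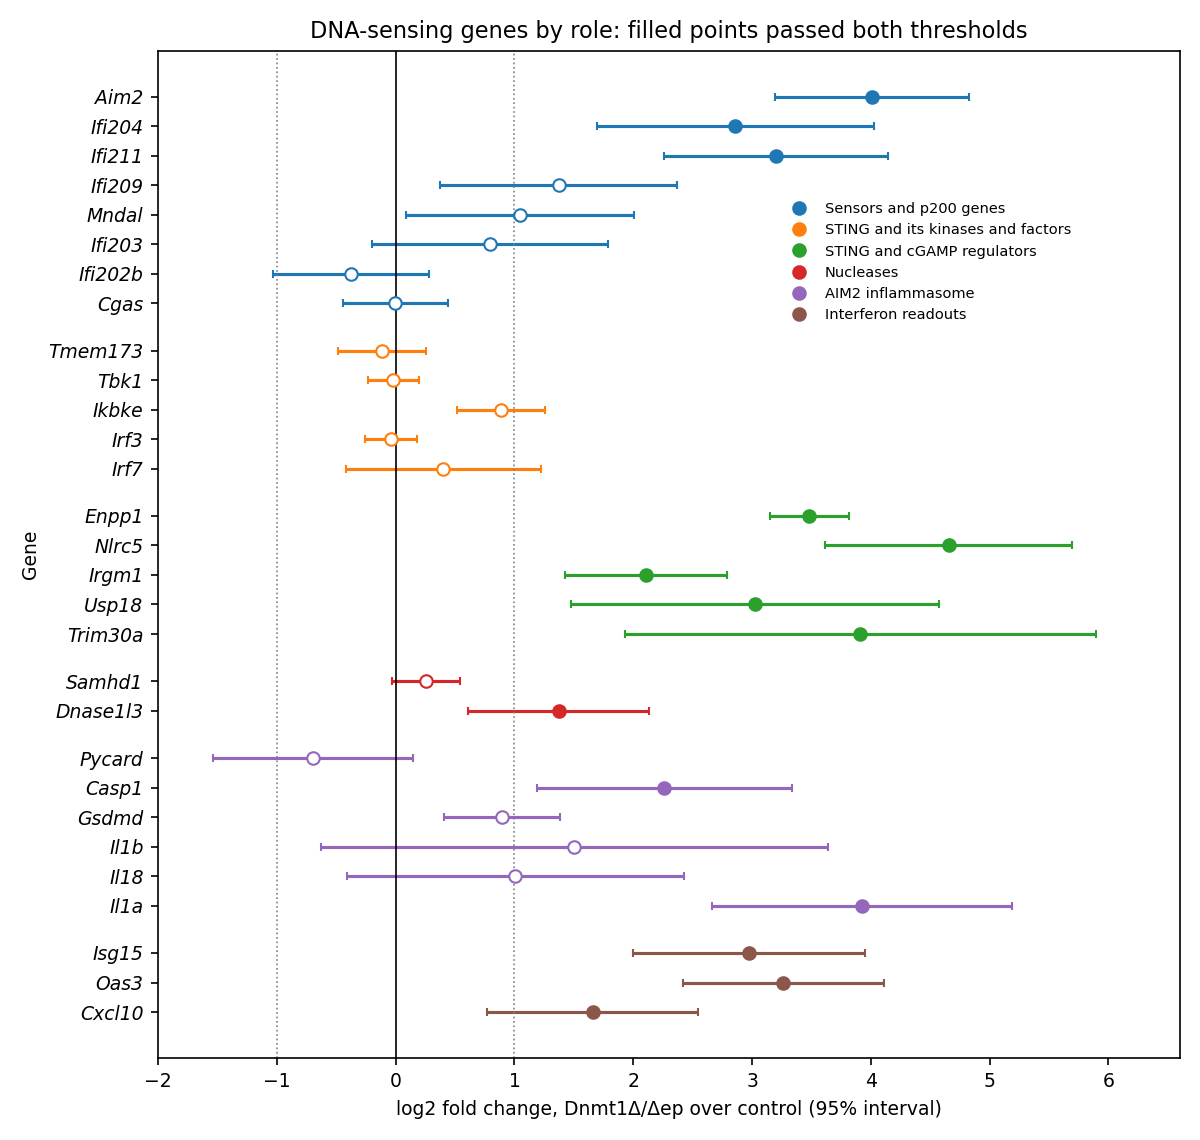
The log2 fold change, Dnmt1Δ/Δep over control, with its 95% interval for genes of DNA sensing grouped by role. Filled points passed both thresholds, the adjusted p and the log2 fold change drawn as dotted lines. Cgas, Tmem173, Tbk1 and Irf3 lie at 0 with narrow intervals, while Aim2, Ifi204, Ifi211, Enpp1 and Nlrc5 lie near 3 or above.

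Transcripts of Ifnb1, the interferon made downstream of IRF3, were near 0, with at most 0.0170 CPM in any library. The levels of the other listed interferons are not given here. Of the 39 listed interferon and interferon-stimulated genes, 5 had 0 reads in all libraries. Of the 28 tested genes of this list, 14 (50%) were upregulated and 0 downregulated with edgeR, with a median log2 fold change of 1.75, against 6.03% and 0.392% of all genes tested. At an unadjusted p below 0.05, 20 were higher and 0 were lower (15.8% and 7.79% of all genes), and DESeq2 called 16 up and 0 down (6.84% and 0.599% of all genes). Isg15, a ubiquitin-like protein, rose from 0.632 ± 0.360 to 4.85 ± 1.14 CPM (adjusted p = 0.0063 from edgeR, log2 fold change 2.97). Cxcl10, a T cell chemokine, rose from 2.32 ± 1.26 to 7.26 ± 1.30 CPM (adjusted p = 0.038 from edgeR, log2 fold change 1.66), a call that was lost without any single Dnmt1Δ/Δep library or control replicate 2 (adjusted p between 0.082 and 0.14). The lowest adjusted p were those of the antiviral tether Bst2 (6.21 ± 0.373 and 18.5 ± 2.97 CPM, adjusted p = 0.0017 from edgeR) and the oligoadenylate synthetase gene Oas3 (0.539 ± 0.275 and 5.06 ± 0.554 CPM, adjusted p = 0.0024 from edgeR). Oasl1, Rsad2 and Oas1a were also upregulated, with log2 fold changes of 3.72, 3.32 and 2.35. The calls of Rsad2 and Oas1a were lost without control replicate 2 (adjusted p = 0.056 and 0.062 from edgeR), and that of Oas1a also without Dnmt1Δ/Δep replicate 3 (adjusted p = 0.056). Of the 28 tested genes, 11 reached the read filter only with the Dnmt1Δ/Δep libraries, and 7 of the 14 upregulated genes were among them. For such genes the filter itself favours a difference, though it does not fix the call (445 of 1118 over all genes were upregulated). Of the other 17 genes 7 (41.2%) were upregulated, where all genes counted this way have 3.62%. The count of 14 fell to 8, 7 and 5 without Dnmt1Δ/Δep replicates 1, 2 and 3 and to 4 without control replicate 2.

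Among NF-κB readouts, 5 of 14 tested genes (35.7%) were upregulated, compared with 6.03% of all genes tested, with a median log2 fold change of 0.78. At an unadjusted p below 0.05, 8 were higher and 0 lower (15.8% and 7.79% of all genes). The 5 upregulated genes were the inhibitor gene Tnfaip3 (21.0 ± 4.90 and 54.8 ± 3.91 CPM), the chemokine genes Cxcl1 (14.7 ± 8.14 and 123 ± 20.2 CPM), Cxcl2 (0.959 ± 0.662 and 7.74 ± 3.17 CPM) and Ccl2 (0.460 ± 0.0856 and 4.93 ± 3.37 CPM), and the cytokine gene Tnf (2.10 ± 1.28 and 13.7 ± 1.57 CPM). Their adjusted p from edgeR lay between 0.0045 and 0.016, and the call of Cxcl2 was lost without Dnmt1Δ/Δep replicate 1 (adjusted p = 0.060). Single libraries moved the log2 fold change of Tnf from 2.73 to 3.33 (without control replicate 3), of Cxcl2 to 3.75 (without control replicate 1) and of Ccl2 from 3.43 to 2.70 (without Dnmt1Δ/Δep replicate 1).

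**Figure D5:**
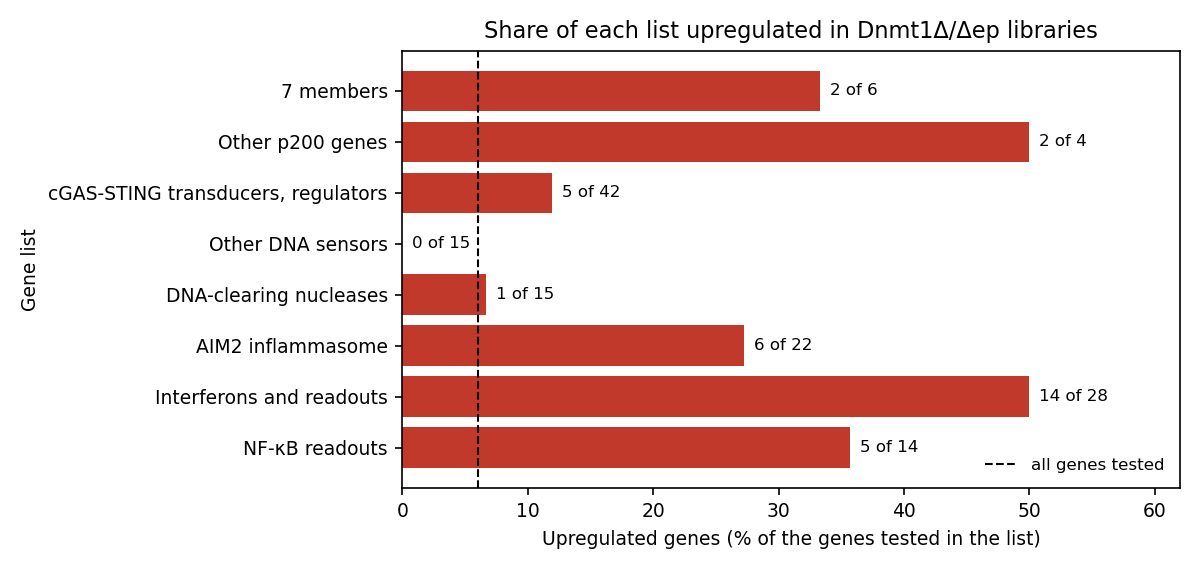
Percent of tested genes in each list that were upregulated in Dnmt1Δ/Δep libraries, with the number called and tested beside each bar and the 6.03% of all genes tested as a dashed line. The other DNA sensors are at 0% and the nucleases near the line, while the interferon readouts are at 50%. Without genes that reached the read filter only with the Dnmt1Δ/Δep libraries, the interferon readouts are at 41.2% and the other p200 genes at 0%. All genes counted this way have 3.62%. The lists were chosen with earlier results of these data known.

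The genes whose pattern over the 6 libraries was most like that of each upregulated member were sought among 12462 other genes with a mean of at least 1 CPM, by Pearson correlation of log2 CPM. For Aim2 they were Pcdhga11 (0.999), Nlrc5 (0.999) and Bhlhe41 (0.999), and 399 genes had a correlation above 0.95. For Ifi204 they were Otulinl (0.998), Nfkbie (0.997) and Lrrc27 (0.996), with 280 genes above 0.95. The points share the 6 libraries, and with 3 libraries on each side any strong difference between the groups gives a high value. Likeness of pattern was not likeness of size, since the log2 fold change was 4.65 for Nlrc5 and 0.49 for Pcdhga11 beside 4.01 for Aim2.

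Markers of other cell types were measured in the same libraries, since p200 genes are expressed in immune cells as well. Of 22 markers of macrophages and dendritic cells, 9 stayed under 0.1 CPM in every library, among them Adgre1, Tyrobp, C1qa and C1qb. Ptprc, the pan-leukocyte gene, had 0, 0 and 2 reads in control and 12, 1 and 0 reads in Dnmt1Δ/Δep replicates 1, 2 and 3. The summed level of the list was 54.5 to 68.8 CPM in control and 109 to 125 CPM in Dnmt1Δ/Δep libraries, of which Cd68 alone held 54.1 ± 7.08 and 106 ± 8.05 CPM. Against the 15.8% and 7.79% of all genes, 4 of its 8 tested genes were higher and 0 lower at an unadjusted p below 0.05, and DESeq2 called 3 upregulated (6.84% of all genes). With edgeR, Csf1r and Itgam were upregulated at low levels, from 0.238 ± 0.134 to 1.54 ± 0.821 and from 0.309 ± 0.266 to 1.50 ± 0.296 CPM (adjusted p = 0.027 and 0.047 from edgeR). Csf1r lost its call with the replicate block (adjusted p = 0.053 from edgeR) and without control replicate 3 or Dnmt1Δ/Δep replicate 1 or 3 (0.068 to 0.088), and Itgam lost its call without any single library but control replicate 3 (0.052 to 0.16). The log2 fold change of Csf1r, 2.67, was 3.26 without control replicate 2, and that of Itgam, 2.35, was 3.26 without control replicate 3.

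Langerhans cell markers summed to 90.5 to 140.9 CPM in control and 159 to 184 CPM in Dnmt1Δ/Δep libraries, with Cd207, which defines these cells, at 1 read over all 6 libraries. Of the 5 tested genes of this list, 4 were higher at an unadjusted p below 0.05 and separated by group (15.8% and 18.2% of all genes), and 2 were called with edgeR and 3 with DESeq2 (6.03% and 6.84% of all genes). Besides Csf1r, Il34, a ligand of its receptor that keratinocytes make, was upregulated (3.69 and 8.70 CPM on average, adjusted p = 0.043 from edgeR) and lost its call without control replicate 2 or 3 or Dnmt1Δ/Δep replicate 1 or 2 (0.10 to 0.15). Of 10 neutrophil markers, 8 stayed under 0.1 CPM in every library. The list summed to 0.180 to 0.596 CPM in control and 1.05 to 2.72 CPM in Dnmt1Δ/Δep libraries. Both tested genes were higher at an unadjusted p below 0.05 (15.8% of all genes), and 2 were called with DESeq2 (6.84% of all genes). With edgeR Ltf, the lactoferrin gene, was upregulated (0.0291 and 1.15 CPM, adjusted p = 0.0059 from edgeR, log2 fold change 5.41, or 6.07 without control replicate 3). T cell markers summed to 2.75 to 3.68 and 3.35 to 4.66 CPM and mast cell markers to 4.06 to 8.95 and 11.3 to 15.5 CPM, with 0 of 3 tested genes called with edgeR in each. Of these lists, 7 of 10 T cell markers and 5 of 8 mast cell markers stayed under 0.1 CPM in every library. At an unadjusted p below 0.05, 1 T cell marker was higher (Thy1, also listed for fibroblasts) and 1 lower and 1 mast cell marker was higher (Kit, also listed for melanocytes), beside 15.8% and 7.79% of all genes. DESeq2 called 0 T cell markers and 1 mast cell marker upregulated (6.84% of all genes).

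Of the structural cell types, melanocyte markers summed to 228 to 582 CPM in control, lowest in replicate 1, and 699 to 927 CPM in Dnmt1Δ/Δep libraries. With edgeR 0 of 8 genes were called and 5 were higher at an unadjusted p below 0.05 (15.8% of all genes). DESeq2 called 2 upregulated (6.84% of all genes). Fibroblast markers summed to 71.9 to 130.2 and 114 to 292 CPM, and all 10 genes had a log2 fold change above 0 (median 1.25). At an unadjusted p below 0.05, 5 were higher (15.8% of all genes), and DESeq2 called 2 upregulated (6.84% of all genes). With edgeR, Fbn1 was called (adjusted p = 0.035 from edgeR, 0.060 with the replicate block). Fbn1 lost its call without any single library but Dnmt1Δ/Δep replicate 2 (adjusted p between 0.052 and 0.12). Endothelial markers summed to 15.2 to 28.5 and 25.9 to 33.6 CPM, and 2 of 7 tested genes were called (6.03% of all genes), with Pecam1 (1.92 and 7.16 CPM) and Cdh5 (0.255 and 4.62 CPM) upregulated (adjusted p = 0.0075 and 0.0097 from edgeR). The log2 fold change of Cdh5, 4.11, was 5.44 without control replicate 1, and Cdh5 and Ltf reached the read filter only with the Dnmt1Δ/Δep libraries. The part of these cell types in the values of Aim2, Ifi204 and the other p200 genes was not tested.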

How the data were processed

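Poly(A) RNA of cultured keratinocytes of 3 control and 3 Dnmt1Δ/Δep mice was sequenced. After trimming and removal of ribosomal reads, alignment by STAR was followed by htseq-count in union mode, which counts reads with a unique position per Ensembl gene. The authors deposited these counts without normalization. The submitters' processing notes name cutadapt, Bowtie2, STAR, HTSeq, DESeq2 and the build GRCm38. The study's text names a human build for the gene alignment, so that positions, symbols (97.3% of genes matched) and exon lengths, taken from GENCODE M21 on GRCm38, describe the genes only. The 5 entries that name no gene held 8.73% to 12.9% of the counts and were left out. Of the 4 deposited tables, the 2 with the authors' own comparisons (fold changes, p-values and normalized counts) and that of repeat counts were not used.

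Counts were tested with edgeR 4.0.16 in R 4.3.3 (quasi-likelihood test, TMM factors, filterByExpr with minimum counts of 10 and 15, all 6 libraries, no block) and adjusted by Benjamini-Hochberg over all 16829 genes tested. Standard errors were derived from the log2 fold change and its F statistic, and 95% intervals use the test's degrees of freedom. CPM are counts over the TMM-scaled library size, RPKM are CPM per kilobase of merged exons. The code was tested on simulated counts. Alternatives were DESeq2 size factors in edgeR, DESeq2 1.42.0, no filter, a mean of at least 1 CPM, the replicate number as a block and leaving out each library.

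The replicate numbers pair the libraries. By the headers of the count table, libraries of the same number share a flow-cell lane (3 lanes), and their deviations from the group means correlated across genes (r = 0.43, 0.28 and 0.30 for numbers 1, 2 and 3). A gene with 0 reads in all controls is given as a lower bound over 3 counts per library.

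The 7 genes and the 17 lists (7 of them genes of other roles, 9 of cell type markers) were chosen with earlier results of these data known. Named are the 7 genes, all other p200 genes, 16 core genes of the pathways, up to 6 called genes of each list with the lowest adjusted p, called neighbours within 500 kb of the cluster, and the 3 genes most correlated with each upregulated member. Ikbke, Stim1, Trex2, Gm18445, Ifi203-ps, Gm7897, Ackr1, Fcer1a and the markers Krt1, Krt5, Krt14, Cd68, Adgre1, Tyrobp, C1qa, C1qb, Ptprc, Cd207, Kit and Thy1 were named after their values were seen. Figures were drawn with matplotlib 3.10.9 in Python 3.11.15.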

Additional observations from a re-analysis of the deposited data

How the results depend on the processing

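Of 671 values of 62 tested genes under 11 alternatives, 603 kept direction and call, 54 lost the call, 9 gained it and 5 changed sign. The 5 were Cgas (log2 fold change 0.022 among genes with a mean of at least 1 CPM, and -0.10 to 0.11 without single libraries, positive without Dnmt1Δ/Δep replicate 1 and without control replicate 2), Tbk1 (0.0067 among genes with a mean of at least 1 CPM) and Ifi203-ps (-0.60 to 0.53 without single libraries, positive without control replicate 3), none of which was called in any setting. With a mean of at least 1 CPM, 523 genes were upregulated and 38 downregulated, and 0 other p200 genes (Ifi211 and Ifi213 were not tested), 8 interferon readouts (of 17 tested) and 0 nucleases (Dnase1l3 was tested, log2 fold change 1.39, adjusted p = 0.057) were called. With DESeq2, 122 genes were downregulated and 2 nucleases and 1 cluster neighbour were called, and with no filter 107 genes were downregulated and 2 nucleases were upregulated; the cause was not tested. Leaving out single libraries gave 559 to 1183 upregulated and 15 to 180 downregulated genes over all genes, 1 to 2 upregulated of the 7 genes (1 without Dnmt1Δ/Δep replicate 1 and 1 without control replicate 2), 2 to 3 other p200 genes, 3 to 4 transducers and regulators, 0 to 1 nucleases and 4 to 13 interferon readouts. With the replicate block, 1173 genes were upregulated and 95 downregulated, Ifi209 was called, Csf1r and Fbn1 were not, and no other call among these 62 genes changed. Depth limits Ifi207, Ifi205, Ifi206 and Ifi208, which had too few reads for the filter. None was called where a setting tested it (adjusted p 0.53 to 0.84 in 6 settings for Ifi207, 0.094 to 0.096 in 2 for Ifi205, and 0.56 and 0.39 in 1 each for Ifi206 and Ifi208).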
